A study of Mus musculus with 2 samples.

Results

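The cytosolic ribosomal protein genes encode the protein part of the ribosomes that translate the mRNAs of the nucleus. They were taken as every mouse gene in the gene tables whose symbol has the form Rpl or Rps with a number and at most a short letter ending, together with the stalk proteins Rplp0, Rplp1 and Rplp2 and the laminin receptor homolog Rpsa. This gave 82 of the 43346 mouse genes listed, 32 of the small subunit and 50 of the large subunit, on 19 chromosomes. GENCODE M21 annotates 80 of them as protein coding, Rps4l as a transcribed processed pseudogene and Rpl6l as a processed pseudogene. The symbol pattern leaves out several genes of the same ribosome, among them Rps3a1, Fau, Rack1 and Rpl36al, whose values are given separately.

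The RNA came from the hindbrain of newborn B6NCrl mice at postnatal day 0, with 1 library from pup 1 (replicate 1) and 1 from pup 3 (replicate 2). Each library started from 13 pg of RNA above 200 nt, labelled as 1 cell-equivalent, taken from the whole hindbrain of a single pup. There was 1 group, no treatment and no sex recorded, and the donor record is shared by the pups, so the only comparison is between the pups and it has no replicate check. In such bulk RNA, fewer cells of a type and less RNA per cell cannot be told apart. The libraries held expected counts of 35462381 in pup 1 and 29866728 in pup 3. ERCC spike-in RNAs, added at known amounts, took 2.31% of the counts in pup 1 and 2.18% in pup 3. Of 11 hindbrain markers 7 were detected in both pups and 2, Hoxb2 and Egr2, were at 0 counts in both, while the forebrain markers Emx1, Dlx1 and Six3 were at 0. Levels are in TPM, a share of transcripts corrected for length, rescaled over nuclear mouse genes, and detection means an expected count of at least 5. Intervals of counts are not given, since amplified reads are not independent molecules and the precision is limited by 2 libraries.

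A ribosome holds most of these proteins in a single copy, and the genes that encode them are therefore known for being expressed together at high levels in growing cells. Many of their mRNAs start with a C followed by a run of pyrimidines, the terminal oligopyrimidine (TOP) tract, through which the growth-controlling kinase mTOR and the RNA-binding protein Larp1 regulate their translation. The differentiating neurons and glia of the newborn brain are known to make protein at a high rate. The mouse genome also carries a large number of processed pseudogenes of these genes, which short reads can be unable to tell from their parents.

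Start regions are shown for runs of pyrimidines, since the family is known for the TOP tract. The windows below run from 15 bases before the RefSeq start site through the 15 bases that begin with it, for the 6 genes with the highest mean level whose longest run of C and T of at least 10 bases lies inside the window. Capitals mark that run. Each run begins before the RefSeq start site, and that of Rpl19 also ends before it. A run is thus a match of letters near the start site, and whether it begins the mRNA was not tested.
Rps18 (chr17:33955651-33955680, minus strand): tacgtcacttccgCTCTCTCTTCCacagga
Rpl38 (chr11:114668565-114668594, plus strand): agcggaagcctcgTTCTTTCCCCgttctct
Rpl19 (chr11:98026909-98026938, plus strand): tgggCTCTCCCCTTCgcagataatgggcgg
Rpl35 (chr2:39005117-39005146, minus strand): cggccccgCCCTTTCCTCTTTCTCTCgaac
Rplp2 (chr7:141447636-141447665, plus strand): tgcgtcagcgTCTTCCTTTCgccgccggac
Rpl14 (chr9:120571502-120571531, plus strand): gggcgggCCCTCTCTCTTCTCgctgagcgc

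The run was 18 bases long in Rpl35, 14 in Rpl14, 11 in Rps18 and Rpl19 and 10 in Rpl38 and Rplp2. RefSeq start regions on GRCm38.p6 were at hand for 60 of the 82 genes. Within 30 bases before to 40 bases after the start site, on the sense strand, 32 of the 60 (53.3%) held an uninterrupted run of at least 10 C or T letters, beside 14.1% of 16317 protein-coding genes. A second motif searched on both strands was CCGGAAG, the core that ETS family transcription factors bind. It lay in the 250 bases before to 50 bases after the start of 25 of the 60 genes (41.7%), beside 13.5% of the protein-coding genes. Both features together were in 16 (26.7%), beside 1.53%. TATAAA, searched on both strands in the 250 bases before the start, was in 3 of the 60 (5%), beside 13.1%. The 120 bases before the start site are shown for the 3 genes with the highest level that hold the ETS core there, with the core in capitals.
Rpl41 (chr10:128549169-128549288, minus strand): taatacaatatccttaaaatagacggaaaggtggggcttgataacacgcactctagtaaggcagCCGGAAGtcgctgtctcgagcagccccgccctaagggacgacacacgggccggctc
Rps18 (chr17:33955666-33955785, minus strand): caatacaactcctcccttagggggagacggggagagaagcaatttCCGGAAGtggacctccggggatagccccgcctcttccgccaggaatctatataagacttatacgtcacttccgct
Rpl38 (chr11:114668460-114668579, plus strand): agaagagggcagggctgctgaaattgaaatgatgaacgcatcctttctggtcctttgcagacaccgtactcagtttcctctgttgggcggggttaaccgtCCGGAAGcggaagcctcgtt

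These matches describe letters and not binding. Levels were not tested against them. Genes with the pyrimidine run had a median of 653 TPM in pup 1 against 467 TPM in pup 3 (32 genes), and genes with a start region without it 689 TPM and 391 TPM (25 detected genes). With the ETS core the medians were 691 TPM in pup 1 against 396 TPM in pup 3 (24 detected genes), and without it 657 TPM and 417 TPM (33 detected genes).

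Of the 82 genes 79 (32 of the small and 47 of the large subunit) were detected in both pups, beside 37.8% of all 21461 protein-coding nuclear genes. The 3 others are paralogs known from other tissues: Rpl3l, a muscle form of Rpl3, and Rpl10l and Rpl39l, forms of male germ cells. Each had 0 counts in both pups. A count of 0 allows up to 3 counts, which is 0.160 TPM in pup 1 against 0.182 TPM in pup 3 for Rpl3l, 0.157 and 0.178 TPM for Rpl10l, and 0.250 and 0.284 TPM for Rpl39l. Their broadly expressed counterparts were among the abundant genes, with Rpl3 at 1753 TPM in pup 1 against 683 TPM in pup 3, Rpl10 at 535 and 411 TPM, and Rpl39 at 341 and 138 TPM.

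Together the 82 genes took 6.79% of nuclear TPM in pup 1 and 4.28% in pup 3, a mean of 5.53 ± 1.78% (SD, n = 2). The expected counts summed to 857448 in pup 1 and 454779 in pup 3. Of the 100 nuclear genes with the highest mean TPM 10 were in this family, and of the 200 highest 29 were. The 10 highest members held 31.3% of the family's TPM in pup 1 and 29.9% in pup 3. The order of the genes was similar in the pups, with a Spearman correlation of 0.88 between their levels across the 79 detected genes, which is a description over genes of shared libraries.

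Rpl41, which encodes the shortest ribosomal protein, was the highest member and ranked 17 among all nuclear genes (ENSMUSG00000093674.3, chr10:128548114-128549305). Its level was 4557 TPM in pup 1 against 2675 TPM in pup 3. The coding sequence in M21 has 78 bases and gives 25 residues, and it is printed whole, with the start and stop codons in capitals, to show how little of the mRNA is coding.
Rpl41 coding sequence (chr10, minus strand): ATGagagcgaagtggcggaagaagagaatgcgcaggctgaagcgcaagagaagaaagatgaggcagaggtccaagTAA

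In the large subunit Rpl41 was followed by Rpl32 at 2055 TPM in pup 1 against 902 TPM in pup 3. Rplp1, an acidic protein of the flexible stalk that recruits translation factors, had 1281 and 1407 TPM. Rpl36 stood at 1592 TPM in pup 1 against 966 TPM in pup 3. The 4 that complete the highest 8 lay close together in mean level. Rpl23a, which sits at the exit of the nascent chain, had 1625 and 885 TPM. Rpl13a, known also for silencing inflammatory mRNAs after interferon, had 1615 and 856 TPM. Rpl3, which lies close to the site of peptide bond formation, had a mean of 1218 ± 757 TPM (SD, n = 2), and Rplp0, the anchor of the stalk, 1130 ± 404 TPM. The differences in mean among these 4 genes were smaller than the SD of each of them between the pups.

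Before copies are added, the highest small-subunit gene was Rps19, whose human counterpart is the gene most often mutated in Diamond-Blackfan anaemia (ENSMUSG00000040952.12, chr7:24884371-24889806). It had 2924 TPM in pup 1 against 1365 TPM in pup 3. Rps14, a protein of the platform where mRNA is read, had 2069 and 1459 TPM. Rps18 stood at 1605 TPM in pup 1 against 828 TPM in pup 3. Each of these was higher in pup 1. Rps9 averaged 1019 ± 410 TPM and Rps25 803 ± 265 TPM (SD, n = 2 each). Rps29, a small zinc-binding protein, was 982 TPM in pup 1 against 1126 TPM in pup 3. With the TPM of near-identical copies added, Rps29 had 2518 TPM in pup 1 against 2341 TPM in pup 3. Rps19 then had 2957 and 1378 TPM. In this sum Rps29 stood above Rps19 in pup 3 and in the mean of the pups. Each copy entered at its own length, so a count on a short copy adds more TPM than one on the gene. Rps29 itself had 5922 counts in pup 1 and its copies 2291. Whether this order holds at the gene's own length was not tested. The medians over the detected genes were 720 TPM in pup 1 against 434 TPM in pup 3 for the small subunit, and 662 and 502 TPM for the large subunit.

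**Figure D1:**
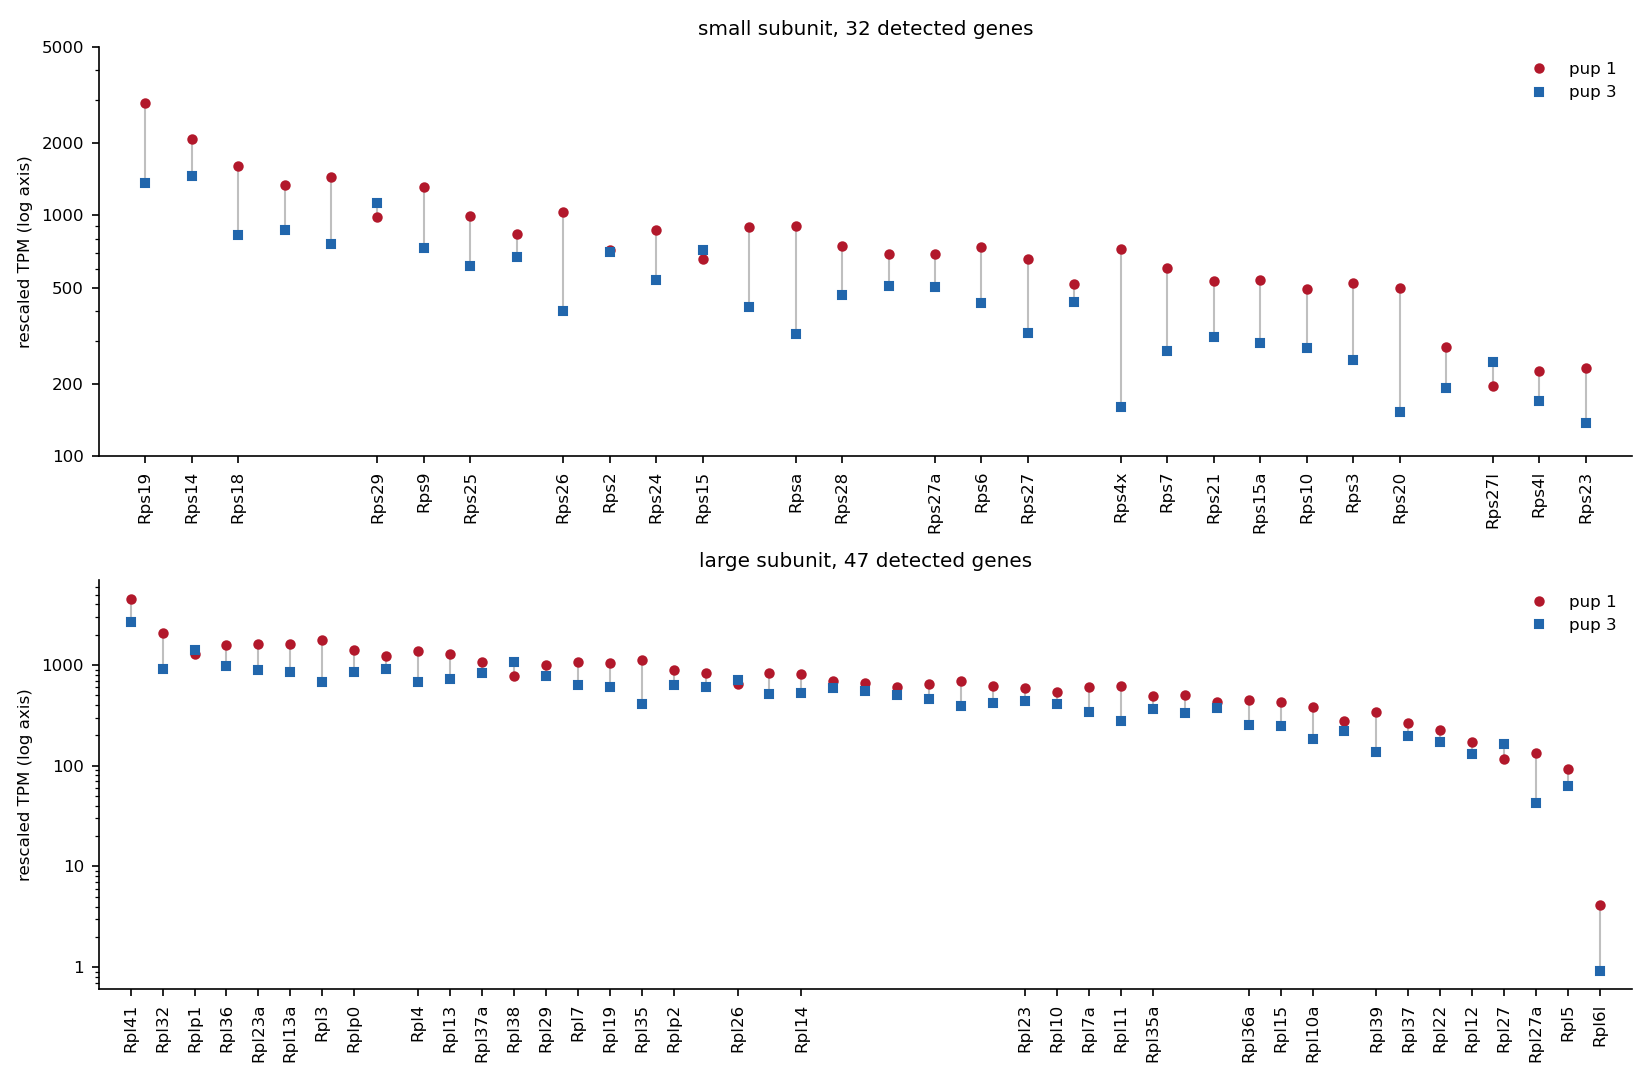
Rescaled TPM (log axis) of the 32 small-subunit and 47 large-subunit genes detected in both pups, ordered by mean, with the genes named in the text marked on the axis; red circles are pup 1, blue squares pup 3, and a grey line joins them. Most circles lie above their squares, and Rpl6l stands far below the other genes at 4.14 TPM in pup 1 against 0.927 TPM in pup 3.

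Below the leading genes, the levels spread over a wide range. A mean of at least 1000 TPM was reached by 17 members and of at least 100 TPM by 76. Rps6, whose phosphorylation by S6 kinase is a common readout of mTOR activity, had 736 TPM in pup 1 against 432 TPM in pup 3. Genes whose human counterparts are also mutated in Diamond-Blackfan anaemia were spread through this range. Rps26 had 1031 TPM in pup 1 against 401 TPM in pup 3, and Rps24 867 and 538 TPM. Rpl11, the partner of Rpl5, had 616 TPM in pup 1 against 280 TPM in pup 3, and Rps7 606 and 274 TPM. Rps10 stood at 495 and 281 TPM and Rpl35a at 490 and 364 TPM, so each of these was higher in pup 1. With near-identical copies added, Rps6 had 1415 TPM in pup 1 against 754 TPM in pup 3. Rpl11 then had 968 and 543 TPM, and Rps7 1040 and 473 TPM. Rpl22, whose loss in mice blocks a class of T cells, was among the lowest members at 226 TPM in pup 1 against 174 TPM in pup 3.

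At the low end, Rpl6l, the processed pseudogene on chromosome 10, had 4.14 TPM in pup 1 against 0.927 TPM in pup 3, from expected counts of 67.7 and 13.4. Rps4l, the other pseudogene (chr6:148354656-148355598), was far higher, at 225 TPM in pup 1 against 169 TPM in pup 3. The quantifier's posterior SD of the Rps4l count, a measure of how uncertainly reads were assigned, was 0.0048% of the count in pup 1 and 0.0058% in pup 3. The lowest protein-coding members were Rpl5 at 93.2 TPM in pup 1 against 63.1 TPM in pup 3, Rpl27a at 134 and 42.3 TPM, Rpl27 at 117 and 163 TPM, and Rpl12 at 172 and 129 TPM. For each of these 4 genes, more reads were assigned to near-identical copies than to the gene itself in both pups.

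Those copies were found by aligning each member's leading coding transcript to all M21 transcripts, at 95% identity or more over at least 100 bases. They numbered 607 genes, of which 439 are in the gene tables, belonging to 73 members, and 428 of the 439 are annotated as pseudogenes. They held 154362 expected counts in pup 1 and 84925 in pup 3, which is 15.3% and 15.7% of the counts of members and copies together. With the TPM of the copies added, the family's share of nuclear TPM was 8.75% in pup 1 and 5.60% in pup 3. The copies gave 19656 of the summed 87519 TPM in pup 1 and 13211 of 55961 TPM in pup 3. That is a larger part than of the counts, as each copy entered at its own length and many are shorter than the gene. Levels with copies therefore depend on these lengths too. For 7 members the copies took over 50% of the summed counts in both pups: Rps27, Rpl27, Rps23, Rpl5, Rpl27a, Rpl12 and Rpl15. For Rpl5, which with Rpl11 binds the smallest rRNA and the p53 regulator Mdm2, the gene had 2337 counts in pup 1 and 2227 in pup 3. The intronless locus Gm15500 (chr7:114705217-114706235), which matches it at 100% identity over 1018 bases, had 11932 counts in pup 1 and 3740 in pup 3. Rps23, which lies in the decoding centre, had 3150 and 1644 counts, against 9420 counts in pup 1 and 4501 in pup 3 for Rps23-ps1. Whether any of these loci is transcribed was not tested.

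Adding the TPM of copies, each at its own length, narrowed the spread of levels within the family. Whether it narrows at the length of the genes was not tested. Without Rpl6l, the gene at the 90th percentile had 6.28 times the TPM of the gene at the 10th percentile in pup 1 and 5.42 times in pup 3, and with copies added 3.67 and 4.80 times. Among the members that moved up was Rps27, with a level of 657 TPM in pup 1 against 324 TPM in pup 3, and 2203 and 1314 TPM with its copies. Rpl15 had 428 and 245 TPM, and with copies 1718 TPM in pup 1 against 1067 TPM in pup 3. In pup 1 Rpl15 had 13094 counts and its copies 13786, so this rise also reflects the shorter length of the copies. By contrast Rps9, Rps20 and Rps21 had no copy in this search, and for Rps9, Rps20, Rps3 and Rpl23 the posterior SD of the count was 0 in both pups.

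**Figure D2:**
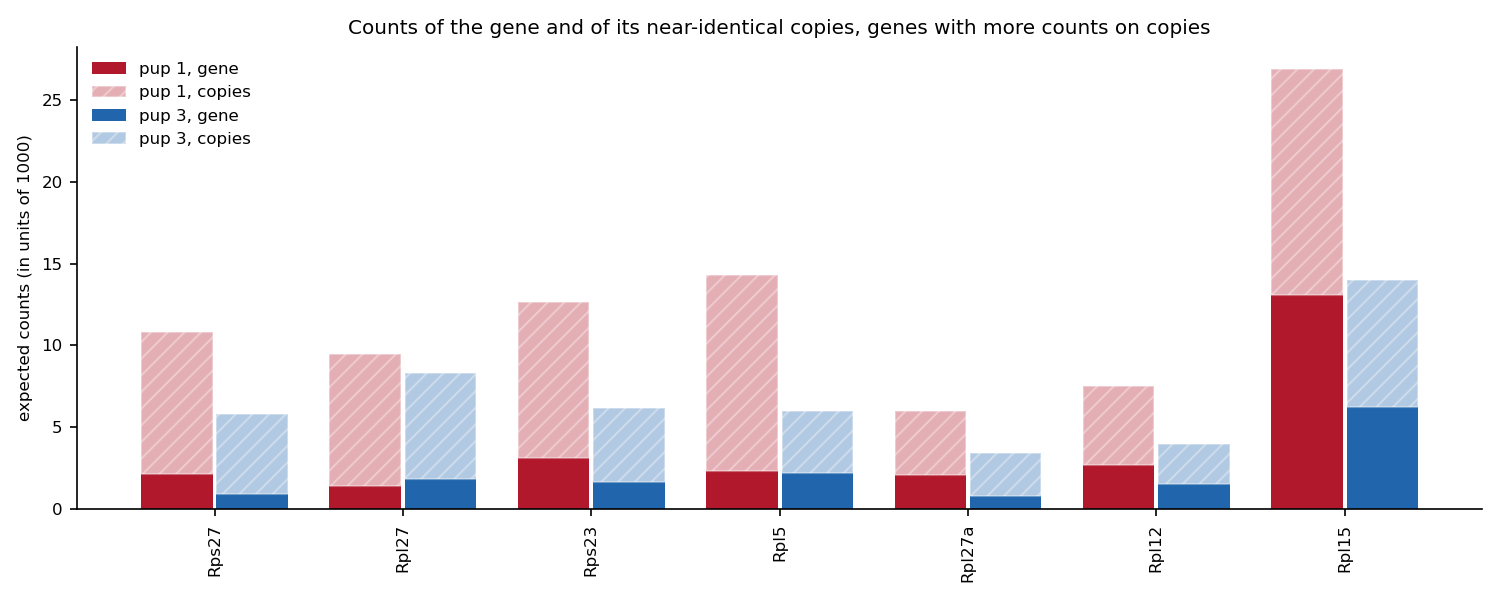
Expected counts (in units of 1000) of 7 members with more counts on copies than on the gene; solid bars are the gene itself and hatched bars its copies, red for pup 1 and blue for pup 3. For Rps27, Rpl27, Rps23, Rpl5, Rpl27a, Rpl12 and Rpl15 the hatched part is the larger in both pups.

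Rps27 and its relatives show what the reads could and could not separate. Rps27 is a zinc-finger protein of the small subunit (ENSMUSG00000090733.2, chr3:90212522-90213651). Rps27l is a paralog known as a target of p53, with introns of its own (chr9:66946086-66949516), and Rps27rt is a copy at chr9:114982366-114982739 that M21 annotates as protein coding. The 90 bases that begin each coding sequence are given with letters that differ from Rps27 in capitals.
Rps27: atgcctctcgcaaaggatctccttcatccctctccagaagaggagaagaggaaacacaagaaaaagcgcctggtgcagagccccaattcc
Rps27rt: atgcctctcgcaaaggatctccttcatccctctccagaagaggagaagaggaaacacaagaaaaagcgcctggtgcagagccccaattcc
Rps27l: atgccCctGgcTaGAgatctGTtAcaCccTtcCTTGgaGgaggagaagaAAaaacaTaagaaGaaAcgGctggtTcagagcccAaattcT

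Rps27 and Rps27rt do not differ in any of their 255 coding bases. Rps27l has the same length and differs from Rps27 at 24 of the 90 bases shown and at 61 of the 255, an identity of 76.1%. The split between the identical pair put 2124 counts in pup 1 and 923 in pup 3 on Rps27, against 8683 and 4902 on Rps27rt, with a posterior SD of 5.01% and 8.77% of the Rps27 count. Rps27l had 1625 counts in pup 1 and 1800 in pup 3, with a posterior SD of 0.0018% of the count in pup 1 and 0 in pup 3. Its level was 196 TPM in pup 1 against 246 TPM in pup 3.

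The other genes that share a number or a parent were mostly unequal in level. Rps4x had 724 TPM in pup 1 against 160 TPM in pup 3, against 225 and 169 TPM for its retrogene Rps4l. Rpl23a (1625 and 885 TPM) stood above Rpl23 (592 and 438 TPM), and Rpl37a (1060 and 830 TPM) above Rpl37 (264 and 199 TPM). With the TPM of copies added, Rpl37 had 1257 TPM in pup 1 against 846 TPM in pup 3. Rpl37a then had 1207 and 926 TPM. The rise of Rpl37 depends on the length of its copy. In pup 1 Rpl37 had 4199 counts at 264 TPM, and its copy Rpl37rt 4244 counts at 993 TPM. No order of this pair is therefore drawn from the sums. The proteins of these numbered pairs are unrelated in spite of their names. Rpl35 (1132 and 414 TPM) was above Rpl35a (490 and 364 TPM), Rpl7 (1066 and 629 TPM) above Rpl7a (598 and 342 TPM), and Rps15 (657 and 715 TPM) above Rps15a (537 and 294 TPM). Rpl13, at 1270 TPM in pup 1 against 722 TPM in pup 3, was below Rpl13a (1615 and 856 TPM) in both pups, but with copies added it was above it in both, at 2317 and 1414 TPM beside 1622 and 859 TPM for Rpl13a. Rps27a, which is made as a fusion with ubiquitin, had 688 and 506 TPM.

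Between the pups the family was higher in pup 1. Of the 79 detected genes 72 were higher in pup 1 and 7 in pup 3, beside 46.0% of all 8931 nuclear genes detected in both that had more in pup 1. With FPKM, CPM, TMM factors or spike-in scaling the counts were 71 and 8. On TPM plus a pseudocount of 1, the ratio of pup 1 over pup 3 had a log2 median of 0.69 for the family and -0.12 for all nuclear genes detected in both. Few single genes were far apart. Among the 79 genes with a count of at least 50 in either pup, 18 (22.8%) were at least 2-fold higher in pup 1, beside 34.7% of the 12300 nuclear genes with such a count. None was at least 2-fold higher in pup 3, beside 27.9%. The share past 2-fold in pup 1 was thus below that of all genes, while the share with more TPM in pup 1 at any size was above it. The 12300 genes include some that were not detected in both pups, whereas all 79 tested members were. The 2-fold shares therefore compare unlike sets.

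The ratios lay close together. The quartiles of the family's log2 ratio were 0.41 and 0.92, a range of 0.51. Among the 1703 other protein-coding genes with a mean of at least 100 TPM the quartiles were -0.76 and 0.44, a range of 1.20, with a median of -0.14. Of these 42.7% had more TPM in pup 1. The 76 family members at that level had a median of 0.69 and an interquartile range of 0.49. The limit of 100 TPM is a floor, and the groups were not matched in level above it. Of the 127 nuclear genes with a mean of at least 1000 TPM, 17 were members. Whether the narrower range goes with level was not tested. The small subunit had a median log2 ratio of 0.76 (29 of 32 higher in pup 1, 9 by at least 2-fold) and the large subunit 0.57 (43 of 47, 9 by at least 2-fold). The interquartile ranges of the subunits, 0.45 to 1.03 and 0.38 to 0.82, overlapped.

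**Figure D3:**
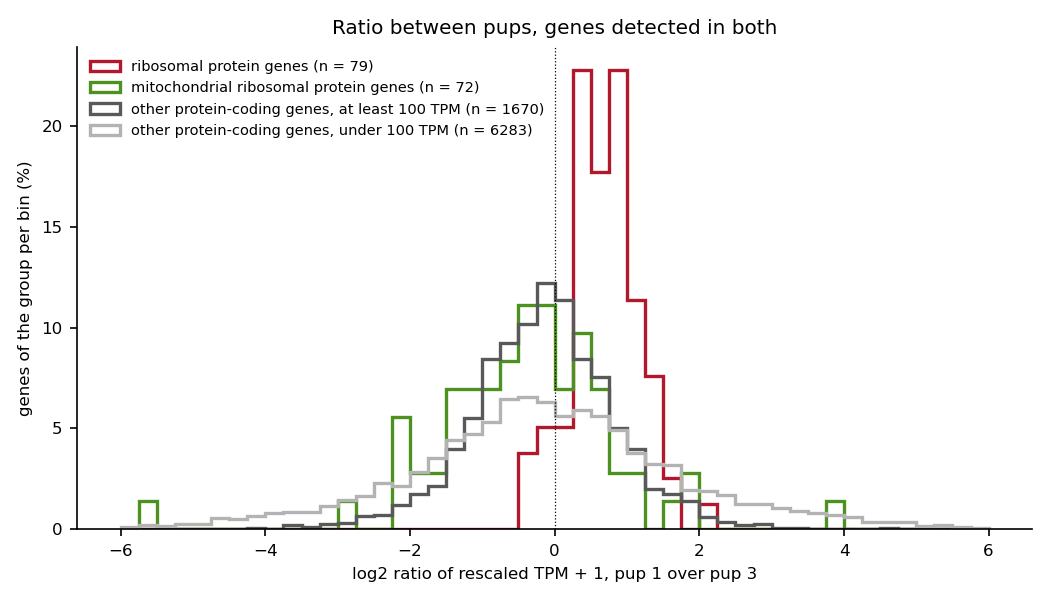
Percent of genes per bin of log2 ratio, pup 1 over pup 3, for the 79 detected ribosomal protein genes (red), 72 mitochondrial ribosomal protein genes (green), and other protein-coding genes with at least 100 TPM (1670, dark grey) or less (6283, light grey); 11 genes beyond 6 either way are not drawn. The red distribution is the narrowest and its median of 0.69 lies right of 0.

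The largest ratio was that of Rps4x, the X-linked form of a small-subunit protein that has a Y-linked form in humans (ENSMUSG00000031320.9, chrX:102184941-102189394), with a log2 ratio of 2.18. It was the only member at least 4-fold higher in pup 1. Rps20, a protein of the head of the small subunit (ENSMUSG00000028234.6, chr4:3831334-3835665), had 500 TPM in pup 1 against 153 TPM in pup 3, a log2 ratio of 1.70. Next were Rpl27a (1.64), Rpsa (1.48), Rpl35 (1.45), Rpl6l (1.42), Rps26 (1.36) and Rpl3 (1.36). The Rpl6l ratio rests on expected counts of 67.7 in pup 1 and 13.4 in pup 3. Their posterior SD was 20.4% and 48.1% of the count. Rpsa, which was also described as a laminin receptor precursor, had 900 TPM in pup 1 against 323 TPM in pup 3. Rps26, at the channel where mRNA leaves the ribosome, had 1031 and 401 TPM. The choice of these 8 by their ratio itself favours a low level in pup 3 and a high one in pup 1. In pup 3 all of these 8 except Rpl3 lay below the family median of 458 TPM. In pup 1 Rps4x, Rpsa, Rpl35, Rps26 and Rpl3 lay above the family median of 691 TPM, and Rps20, Rpl27a and Rpl6l below it.

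The 7 genes with more TPM in pup 3 differed by less than 1.5-fold. Rpl27 had a log2 ratio of -0.48. For Rpl38, the gene mutated in the skeletal Tail short mouse, the level was 778 TPM in pup 1 against 1065 TPM in pup 3, a ratio of -0.45. Rps27l had -0.33, Rps29 -0.20, Rplp1 -0.14, Rps15 -0.12 and Rpl26 -0.12, of which Rps15 was 0.0081 with DESeq2 size factors. Rpl26, which also binds p53 mRNA, had 649 and 707 TPM. Of the other stalk proteins, Rplp2 had 895 TPM in pup 1 against 630 TPM in pup 3, a ratio of 0.51, and Rplp0 a ratio of 0.75, so the 3 stalk genes did not share a direction. Rps2 was nearly equal, at 715 and 705 TPM. Its log2 ratio was 0.02, and -0.046 with FPKM and -0.059 with spike-in scaling.

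Where the copies took many reads, the ratio of the gene alone and that of gene and copies could be far apart. For Rpl27a the log2 ratio was 1.64 alone and 0.59 with copies, for Rpl5 0.56 and 1.30 (-0.17 alone with CPM, which does not correct for length), and for Rpl27 -0.48 and 0.031. In summed TPM Rps29 went to the other side as well, with -0.20 alone and 0.10 with copies. Its own counts were 5922 in pup 1 and 5985 in pup 3. Those of its copies were 2291 and 1599, each weighted by the copy's own length. Ratios with copies thus move with the assignment of shared reads and with the lengths of the copies. Across the family the ratios changed little, as the median with copies was 0.68, with 74 genes higher in pup 1 and 5 in pup 3. In the 54 genes whose posterior SD was at most 1% of the count in both pups the median was 0.69, with 49 higher in pup 1 and 5 in pup 3.

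Transcript length varied over the family from an effective length of 156 bases in Rps27 to 1762 in Rpsa, with a median of 571, against 2408 for the other protein-coding genes detected in both pups. Effective length is the number of positions where a read can start. The shortest members were Rps27, Rpl38, Rps28, Rps29 and Rps21, and Rps28, at the mRNA exit channel, had 747 TPM in pup 1 against 466 TPM in pup 3. The longest were Rpsa, Rpl5, Rps3, Rpl15 and Rpl4, and Rpl4, whose loop lines the exit tunnel of the nascent chain, had 1390 and 672 TPM. Rps3, which guards the mRNA entry, had 524 TPM in pup 1 against 250 TPM in pup 3, and the log2 ratio was 1.05 for Rpl4 and 1.07 for Rps3. Longer members had lower levels (Spearman -0.32 across 79 genes) and slightly larger ratios (Spearman 0.21), whereas level and ratio were hardly related (Spearman 0.04). The genes share both libraries, and these values are descriptions.

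In each length class that held members, the family median was above that of other genes. The 25 members with an effective length of 300 to 500 bases had a median log2 ratio of 0.57, and 136 other protein-coding genes of that length -0.34. For the 23 members of 500 to 700 bases it was 0.61 against -0.24 in 241 others. The 10 members of 1000 to 2000 bases had 0.81 against -0.13 in 2251 others.

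**Figure D4:**
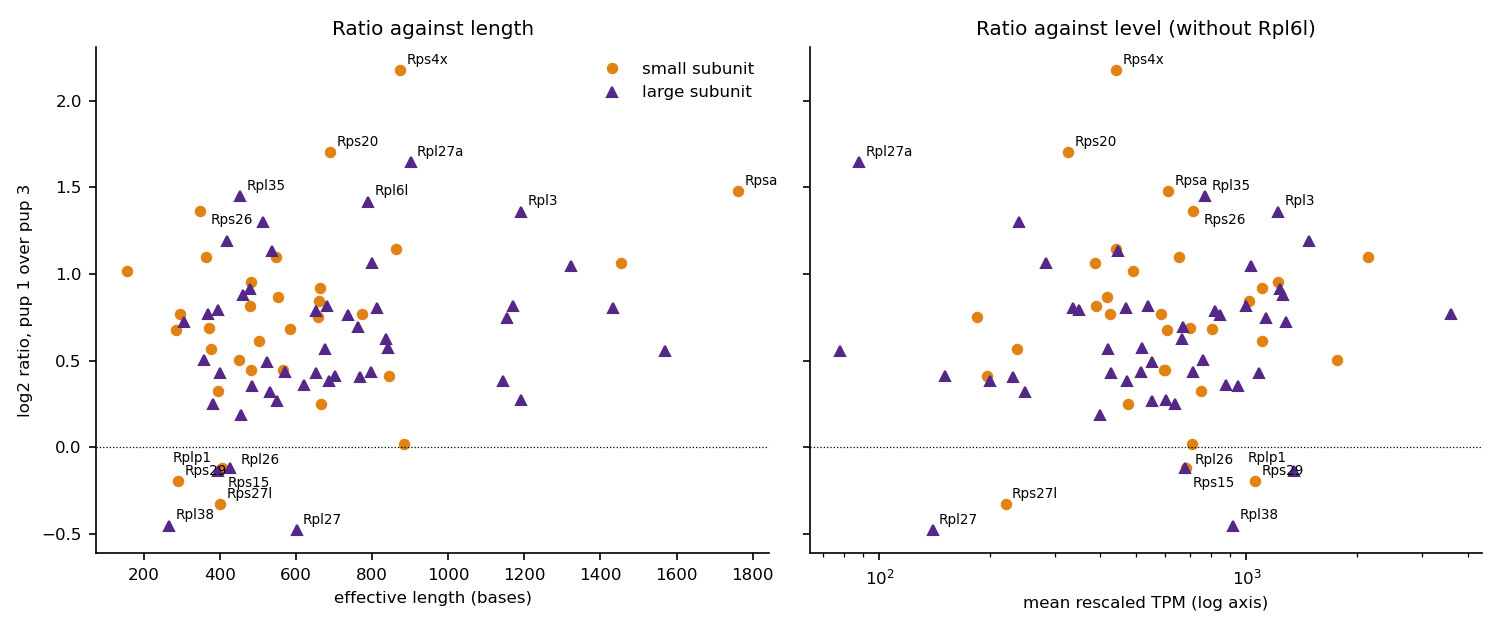
Log2 ratio of pup 1 over pup 3 for each detected gene against effective length in bases (left) and against mean rescaled TPM on a log axis (right); orange circles are small-subunit and purple triangles large-subunit genes. Named are the 8 genes with the largest ratios and those below 0 (on the right without Rpl6l); Rps4x is the highest at 2.18 and Rpl27 the lowest at -0.48.

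The transcript tables give each transcript's share of its gene's TPM. Of the 79 detected genes 21 have a single transcript in the tables. Of the other 58, 53 had the same leading transcript in both pups, and in 48 of these it held at least 50% in each. The share of the leading transcript of pup 1 differed by a median of 5.06 percentage points between the pups. Protein-coding transcripts held a median of 98.7% of the TPM in pup 1 and 99.7% in pup 3 over the 58 genes.

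The 5 genes whose leading transcript differed were Rpl5, Rpl23, Rpl27a, Rpl29 and Rpl38. In Rpl5 the retained-intron transcript Rpl5-204 held 41.5% in pup 1 and 0% in pup 3, and the coding transcript Rpl5-201 held 32.4% and 98.9%. In Rpl23, another protein that binds Mdm2, Rpl23-204 without an annotated reading frame held 69.3% in pup 1 and 26.7% in pup 3, and the coding Rpl23-201 29.9% and 72.5%. Rpl27a-205, annotated as a target of nonsense-mediated decay, held 50% in pup 1 and 0% in pup 3. The coding Rpl27a-203 held 49.97% and 99.91%, so the lead in pup 1 was nearly a tie. Near-identical copies took 83.6% of the summed counts of Rpl5 in pup 1 and 62.7% in pup 3. For Rpl27a they took 65.5% and 76.0%. In Rpl5 and Rpl27a a change of transcript use and the assignment of shared reads cannot be told apart. For Rpl23 copies had 0 counts in both pups, and the posterior SD of the gene's count was 0 in both. The pairs in Rpl29 and Rpl38 were all annotated as coding. Rpl38-201 held 54.6% in pup 1 and 39.4% in pup 3 and Rpl38-204 44.2% and 40.8%, nearly a tie in pup 3.

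In 4 protein-coding members the leading transcript was the same in both pups but is not annotated as coding in M21. Rps20-201, annotated as a retained intron, held 90.9% of the Rps20 TPM in pup 1 and 95.1% in pup 3. Rpl35-203, with no annotated reading frame, held 87.5% and 89.9%. The decay target Rpl12-201 held 74.9% in pup 1 and 57.8% in pup 3. The leading transcript of Rpl13a, at 38.8% and 40.2%, comes from the M4 annotation of the deposited tables and has no entry in M21. Rps10, another gene with several transcripts, kept its leading coding transcript at 69.6% in pup 1 and 70.0% in pup 3. Retained-intron transcripts held a larger share in pup 3 for Rpl10a, at 15.8% in pup 1 and 50.4% in pup 3. Near-identical copies took 44.6% of the summed counts of Rpl10a in pup 1 and 26.7% in pup 3. For Rpl35 they took 38.8% and 46.7%, and for Rpl12 64.5% and 61.1%, while Rps20 had no copy. In Rpl10a, Rpl35 and Rpl12 the transcript shares thus also depend on the assignment of shared reads.

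**Figure D5:**
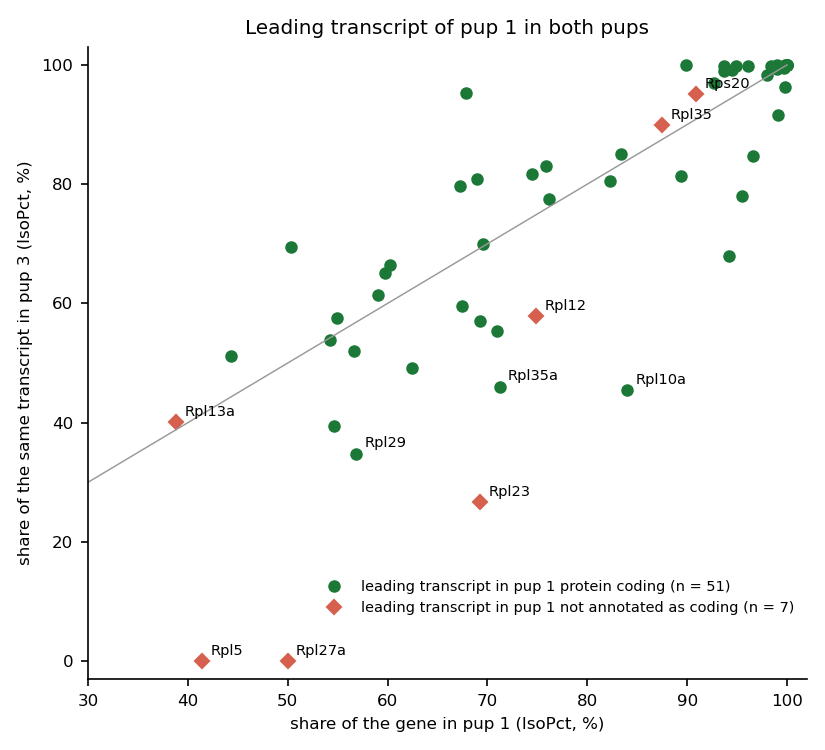
Share (IsoPct, percent of the gene's TPM) held by the leading transcript of pup 1, in pup 1 on the horizontal axis and in pup 3 on the vertical axis, for the 58 detected genes with several transcripts; green circles are annotated as coding, red diamonds are not. Points near the grey line of equal share are genes with like shares in the pups, and Rpl5 and Rpl27a lie at 0 in pup 3.

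Introns of these genes are known hosts of small nucleolar RNAs, the guides of rRNA modification. In M21, 29 of the 82 genes (35.4%) hold at least 1 annotated snoRNA gene on the same strand, 56 in all, with 5 in Rpl4, beside 1.19% of the protein-coding nuclear genes. The 29 hosts had a median log2 ratio of 0.61 and the 50 detected genes without one 0.69. Being below the size limit of 200 nt in most cases, the snoRNAs themselves were not compared.

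Related genes that the symbol rule leaves out had mixed ratios. Rps3a1, the small-subunit protein S3a, had 1020 TPM in pup 1 against 669 TPM in pup 3, a log2 ratio of 0.61. Fau, made as a fusion of a ubiquitin-like protein with a small-subunit protein, had a ratio of 0.67. Rpl22l1, a paralog of Rpl22, had 0.33, and Rpl7l1, a paralog of Rpl7, 0.25. Rack1, a scaffold on the small subunit, was equal in the pups at 345 and 339 TPM. Rps19bp1, a partner of Rps19, had -0.04. Rpl36al, an intronless relative of Rpl36a, went the other way, with 256 TPM in pup 1 against 574 TPM in pup 3, a ratio of -1.16, while Rpl36a itself had 444 and 256 TPM. It was the only one of the 8 at least 2-fold apart.

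Other mRNAs with a TOP tract were also mostly higher in pup 1. All 16 genes of the list were detected in both pups, 11 higher in pup 1 and 5 in pup 3, with a median log2 ratio of 0.68, beside 46.0% of all nuclear genes detected in both that had more in pup 1. Of the 16, 3 were at least 2-fold higher in pup 1 and 1 in pup 3, smaller shares than the 34.7% and 27.9% of all nuclear genes tested. That wider set includes genes not detected in both pups. Eef2, the elongation factor that moves the ribosome along mRNA, had 1077 TPM in pup 1 against 271 TPM in pup 3, a ratio of 1.99. Npm1, a nucleolar chaperone, had 958 and 324 TPM, a ratio of 1.56. Eef1a1, which brings tRNA to the ribosome, had 5772 TPM in pup 1 against 2891 TPM in pup 3. In the other direction were Btf3 and Eif4b at -0.63 each, Pabpc1 at -0.30 and Tpt1 at -0.11, with Eif3f low in both at 0.553 and 2.22 TPM.

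Genes that build ribosomes differed between the pups in both directions. Of 30 listed assembly genes 27 were detected in both pups, with a median log2 ratio of 0.31, and 10 of 30 were at least 2-fold higher in pup 1 and 7 in pup 3, shares near the 34.7% and 27.9% of all nuclear genes tested. Ncl, the nucleolar protein nucleolin, had 250 TPM in pup 1 against 71.8 TPM in pup 3. Ubtf, a factor of rRNA transcription, had 5.24 TPM in pup 1 against 42.0 TPM in pup 3. Polr1b, a subunit of RNA polymerase I, had 32.6 TPM in pup 1 and 0 counts in pup 3. The 72 detected genes of the mitochondrial ribosome, a separate set of nuclear genes, had a median log2 ratio of -0.30, with 25 higher in pup 1 and 47 in pup 3, beside 46.0% and 54.0% of all nuclear genes detected in both.

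Other features of the libraries moved between the pups too. The 5 neuron markers summed to 7008 TPM in pup 1 against 4586 TPM in pup 3, but they did not move together. Tubb3 (3905 and 2044 TPM), Stmn2 and Rbfox3 had more in pup 1, and Snap25 (581 and 603 TPM) and Map2 (203 and 377 TPM) more in pup 3. The 2 erythroid markers Hba-a1 and Hbb-bs summed to 486 TPM in pup 1 against 1758 TPM in pup 3. The 4 markers of astrocytes and radial glia summed to 4634 TPM in pup 1 against 4281 TPM in pup 3, with Fabp7 (2791 and 3012 TPM) higher in pup 3 and Slc1a3 (532 and 281 TPM), Vim (425 and 219 TPM) and Aldoc higher in pup 1. The choroid plexus marker Ttr had 3028 and 3380 TPM, and the 2 microglia markers C1qb and Csf1r summed to 127 TPM in pup 1 against 54.6 TPM in pup 3, where Csf1r was at 0. Cldn5 of endothelium had 85.3 and 156 TPM, and Dcn of meninges 84.6 TPM in pup 1 against 167 TPM in pup 3. Their part in the ratio of the ribosomal protein genes was not tested. With the ERCC spike-ins as the common scale, the family's median log2 ratio was 0.61 and that of all nuclear genes detected in both -0.19.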

How the data were processed

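RNA-seq of 2 hindbrain libraries was analysed from the deposited gene and transcript tables. Per the deposited notes, the authors quantified transcriptome alignments on mm10 with annotation M4. Per the file headers, the deposited expected counts split reads shared between transcripts, the deposited TPM and FPKM values are scaled by effective length, and the deposited percent (IsoPct) is a transcript's share of its gene's TPM. Columns have the layout of RSEM. The aligner, its version and the use of strand are not given in the sources at hand, so near-identical copies, overlapping and antisense genes are uncertain individually.

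Gene IDs (42462 of 43346) were paired, without their version numbers, with GENCODE M21 on GRCm38, whose coordinates are 1-based. TPM was rescaled to 1000000 over 43309 nuclear genes. The log2 ratio is pup 1 over pup 3 with a pseudocount of 1, and 2-fold calls needed an expected count of at least 50 in either pup. With 1 group of 2 libraries no test was possible. Copies were aligned with BLAST 2.17.0 and had to be covered to 80% (50% for pseudogenes). Scaling factors came from edgeR 4.0.16 and DESeq2 1.42.0 on expected counts rounded to whole numbers, with R 4.3.3 and Python 3.11.15. Start regions are from RefSeq on GRCm38.p6.

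Members, lists and rules were chosen with earlier results of these data known. Named are, by level, the 8 highest of each subunit and the 5 lowest detected, every undetected member, the 8 with the largest ratio and all with a negative one, the stalk genes and Rpsa, listed paralog pairs, the 5 shortest and 5 longest, and members whose leading transcript differs or is not coding. Rps2, Rps6, Rps7, Rps10, Rps23, Rps24, Rpl10a, Rpl11, Rpl14, Rpl19 and Rpl22 and the copies were added after their values were seen. A few genes within these rules are not reported here.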

Additional observations from a re-analysis of the deposited data

How the results depend on the processing

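No paired analysis was possible because there is 1 group. A ratio between the pups cannot be recomputed without either of them. Detection gave 78 to 79 members under every setting tried, and 79 with either pup alone. The family's share of nuclear TPM lay between 4.28% and 6.79% with a pup left out, and was 2.09% of expected counts, where short genes weigh less. The median log2 ratio of 0.69 stayed positive: 0.68 with a pseudocount of 5, without a filter on detection, or with copies, 0.67 with deposited TPM, 0.62 with FPKM, 0.63 with CPM, 0.77 with edgeR TMM factors, 0.79 with DESeq2 size factors and 0.61 with spike-in scaling. Those scalings moved the median of all detected nuclear genes by between -0.07 and 0.13. Relative to that median the family stood 0.76 to 0.82 higher on the log2 scale under each of these scalings. Single genes changed side as follows. Rpl5 had -0.17 with CPM, -0.035 with TMM and -0.0096 with DESeq2, where the transcript lengths that differ between the pups are not corrected for. Rps2 had -0.046 with FPKM and -0.059 with spike-in scaling, and Rps15 had 0.0081 with DESeq2. With copies Rpl27 had 0.031 and Rps29 0.10, in sums of TPM that depend on the lengths of the copies. The small and large subunit medians were 0.75 and 0.57 with a pseudocount of 5, 0.74 and 0.56 with deposited TPM, 0.69 and 0.54 with CPM, 0.83 and 0.68 with TMM, and 0.86 and 0.70 with DESeq2, so the small subunit had the larger median under each. Members past the fold in pup 1 were 18 at 2-fold, 44 at 1.5-fold and 1 at 4-fold, and none passed in pup 3 under any setting tried. The rank correlation of length with ratio was 0.22 with gene length, 0.18 with the leading transcript's length or with CPM, and 0.26 with copies. The spike-in scaling, the posterior SD limit, the protein-coding restriction and the copies were chosen after seeing the data. Copies and shared reads limit single genes, and 2 libraries of 13 pg limit the comparison.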
